A study of Mus musculus with 4 samples.

Results

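The colony-stimulating factors are secreted proteins that keep myeloid cells alive, make them divide and steer which myeloid cell a precursor becomes. 10 genes of this family were examined among the 55401 genes in the count matrix: the ligand genes Csf1, Csf2, Csf3 and Il34, and the receptor chain genes Csf1r, Csf2ra, Csf2rb, Csf2rb2, Csf3r and Il3ra. They were picked by name as the ligands and receptor chains of the family, with earlier results of these data known. The cells were bone marrow-derived macrophages (BMDM) of C57BL/6J mice, that is, macrophages grown in culture from marrow precursors. On day 1 after isolation the marrow cells received a CRISPR-Cas9 lentivirus at a multiplicity of infection of 30, and they were then differentiated over 5 days. In the 2 knockout libraries the virus targeted Adcy7, an adenylyl cyclase that makes cyclic AMP. In the 2 control libraries the virus targeted Rosa, a locus commonly used as a neutral target, so both groups received Cas9, a guide and the same viral dose, and all 4 libraries belonged to batch 1. The labels name no selection or cloning of edited cells, and they do not tell if the replicates are independent mice or cultures. P-values therefore measure the spread between these libraries, which may be technical.

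CSF1 (also called M-CSF) and interleukin 34 are alternative ligands of CSF1R, the receptor tyrosine kinase on which most macrophages, and BMDM in culture, depend for survival. GM-CSF, encoded by Csf2, binds its own alpha chain (Csf2ra) and signals through the common beta chain (Csf2rb), which it shares with the receptors for interleukins 3 and 5. Mice carry an additional beta chain gene, Csf2rb2, whose protein serves the interleukin 3 receptor together with the alpha chain Il3ra. G-CSF, encoded by Csf3, acts on CSF3R, the receptor of the neutrophil lineage.

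Ligands and receptors moved in different ways in the knockout libraries. Csf1, Csf2 and Csf3 were all higher, the beta chains Csf2rb and Csf2rb2 were higher, and Csf1r and Csf3r were lower. For the alpha chains Csf2ra and Il3ra the groups overlapped. Of the 10 members, 9 had enough counts to be tested, 5 passed as higher and 2 as lower at an adjusted p under 0.05 (edgeR's quasi-likelihood test, Benjamini-Hochberg adjustment over all genes tested). Of all 15832 genes tested, 49.6% passed, 25.0% as higher and 24.6% as lower, so a call alone is common in these data. The 2 groups did not overlap for 7 of the 9 tested members, and for 75.2% of all tested genes. The median log2 fold change of the tested members was 1.54, against 0.01 for all tested genes.

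The libraries summed to between 61782358 and 71914179 counts, and levels are given as CPM, the count of a gene scaled to a library total of 1000000 counts. Adcy7 itself was at 122 and 125 CPM in the control libraries and at 59.4 and 58.8 CPM in the knockout libraries. It stood at 47.9% of the control level (log2 fold change -1.05, SE 0.09, adjusted p = 4.6e-06, edgeR), in the direction of the labels.

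**Figure D1:**
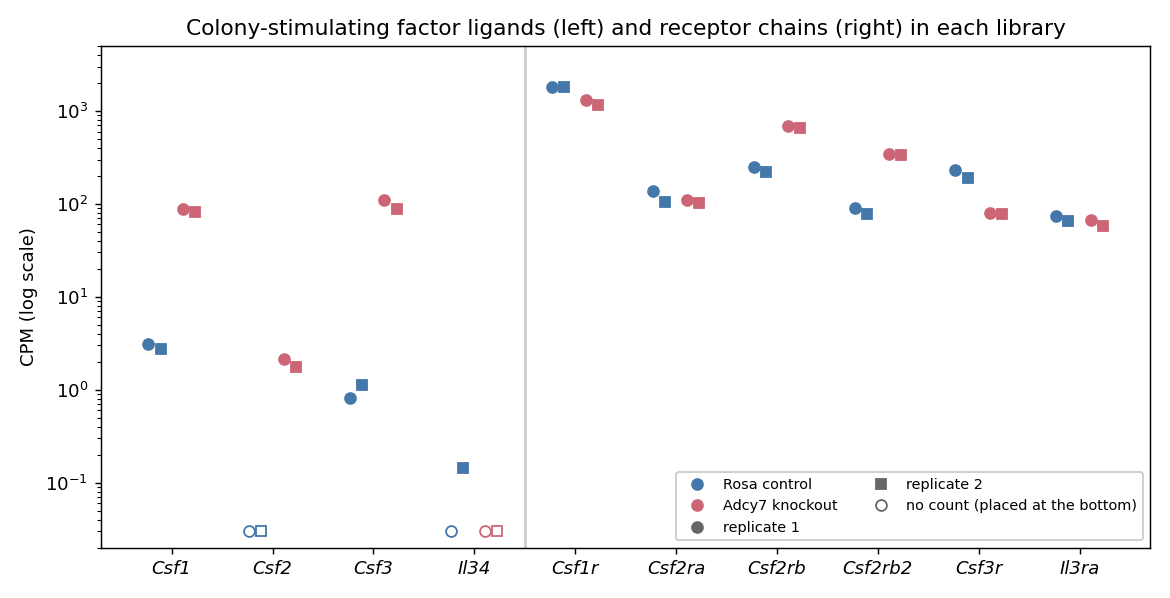
CPM on a log scale of the 4 ligand genes and 6 receptor chain genes, with 1 point per library (blue control, red knockout; circle replicate 1, square replicate 2; open symbols mark libraries with no count). The red points of Csf1, Csf2 and Csf3 lie far above the blue ones, Csf2rb and Csf2rb2 are higher, Csf1r and Csf3r are lower, and the points of Csf2ra and Il3ra mix.

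Csf1, the ligand that macrophages need for survival, was barely present in control cells and well expressed in knockout cells. Its level was 3.12 CPM in control replicate 1 and 2.76 CPM in control replicate 2, against 87.7 and 81.0 CPM in the knockout replicates. Both knockout libraries were far above both control libraries. The mean rose from 2.94 ± 0.251 to 84.4 ± 4.78 CPM (SD, n = 2 each), which is 28.7-fold. The log2 fold change was 4.86 (SE 0.14, adjusted p = 1.3e-09, edgeR). Counting from the largest rise, Csf1 was in place 302 among all tested genes.

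The Csf1 gene lies on chromosome 3, on the minus strand. Its promoter is shown because Csf1 was a strongly raised ligand with a RefSeq promoter entry. Csf2 also had an entry, which is not printed here. The window used is free of annotated exons and runs from base -250 to base -12 before the start site (GRCm38.p6, chr3:107760481-107760719, minus strand). The capitals mark a match to the NF-kB consensus, searched on both strands.
Csf1 promoter: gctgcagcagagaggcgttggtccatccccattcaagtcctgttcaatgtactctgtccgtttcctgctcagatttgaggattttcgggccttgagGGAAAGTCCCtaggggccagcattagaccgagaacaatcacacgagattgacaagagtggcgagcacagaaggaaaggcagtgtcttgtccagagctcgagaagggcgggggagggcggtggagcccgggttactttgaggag
The consensus occurred in 6.67% of 27025 promoters in a window of the same length. Of the 6 members with a promoter entry, Csf1 and Csf3r each held 1 match, and these members moved in opposite directions. The Csf1 window held no match to AP-1 (TGANTCA), CRE (TGACGTCA), C/EBP (TTGCNNAA) or Ets (AGGAAG) letters.

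Csf2, which encodes GM-CSF, was counted only in the knockout libraries. It had 0 counts in both control libraries and 154 and 108 counts in the knockout libraries, or 2.14 and 1.75 CPM. The groups were separate, but the level stayed low, at a mean of 1.94 ± 0.278 CPM (SD, n = 2). Over the 2 control libraries together, a count of 0 allows up to 0.0885 CPM, taking 12 counts as the limit. Pooled over the 2 knockout libraries, Csf2 was at 1.96 CPM, which is 22.2-fold that limit, and it passed as higher (adjusted p = 6e-05, edgeR). The limit covers counting error in the control libraries only. Counting error in the knockout libraries is not included, so 22.2-fold is not a strict lower bound.

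Csf3, which encodes G-CSF, had the largest measured fold among the ligands with counts in both groups. Its level was 0.821 and 1.13 CPM in the control libraries and 109 and 87.3 CPM in the knockout libraries. The lower knockout library was still far above the higher control library. The mean rose from 0.976 ± 0.219 to 98.1 ± 15.4 CPM (SD, n = 2 each), a 101-fold difference. The log2 fold change was 6.66 (SE 0.21, adjusted p = 2.1e-09, edgeR), in place 233 among all rises.

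Il34, the other ligand of CSF1R, was at the limit of detection. It had 0 and 10 counts in the control libraries and 0 in both knockout libraries, all under the floor of 12 counts, so no fold is given and it was not tested. Of the cytokines that signal through the same beta chains, Il3 had no count in any library and Il5 had counts in knockout replicate 2 only, at 0.0647 CPM. Summed over Csf1, Csf2 and Csf3, the ligand transcripts came to 3.94 and 3.89 CPM in the control libraries and 199 and 170 CPM in the knockout libraries. The summed ligand level was 47.1-fold higher, with no overlap. An exact two-sided permutation test of 2 against 2 libraries gave p = 0.333, the smallest it can give.

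The transcripts of the raised ligands end in 3′ untranslated regions that carry ATTTA pentamers. Such pentamers occur in AU-rich elements, the sequences through which cytokine mRNAs are targeted for decay. They are shown because genes for the proteins that bind them are reported further on. Each line gives the 30 bases of the 3′ untranslated region with the most ATTTA pentamers, which are in capitals and can overlap (GENCODE M21 on GRCm38: Csf1 chr3:107741109-107741138, minus strand; Csf2 chr11:54247327-54247356, minus strand; Csf3 chr11:98702984-98703013, plus strand).
Csf1: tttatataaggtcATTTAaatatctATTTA
Csf2: tttaaatATTTATTTATTTATTTATTTAtt
Csf3: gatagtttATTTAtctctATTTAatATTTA
The Csf2 window held 5 overlapping pentamers, that of Csf3 held 3 and that of Csf1 held 2. Over its whole 3′ untranslated region of 317 bases, Csf2 had 9 pentamers and 4 copies of the nonamer TTATTTATT, which contains the pentamer. Of 795 genes whose 3′ untranslated region is within 10% of that length, 2.14% held the nonamer at least once. Csf3 had 6 pentamers in 669 bases and Csf1 had 4 in 2111 bases, and neither held the nonamer. None of the 6 receptor chains held the nonamer. Csf1r, with 3 in 1669 bases, was the receptor transcript with pentamers, so Csf1 did not stand apart from its receptor. The share of all genes with pentamers was not computed.

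Csf1r, the receptor for CSF1 and interleukin 34, remained the most abundant member per length in every library although it fell. Its level was 1812 and 1806 CPM in the control libraries and 1307 and 1168 CPM in the knockout libraries. Both knockout libraries were below both controls, which were nearly equal. The mean fell from 1809 ± 3.72 to 1237 ± 97.9 CPM (SD, n = 2 each), 68.4% of the control level. The log2 fold change was -0.53 (SE 0.10, adjusted p = 0.0011, edgeR). Ranked by CPM among all genes, Csf1r was in place 48 and 46 in the control libraries and 79 and 89 in the knockout libraries. In GENCODE M21 the Csf1r gene on chromosome 18 shares 873 exon bases with Hmgxb3 on the opposite strand, and no source used here says that counting used the strand. Hmgxb3 was at 24.9 ± 1.39 CPM in control and 44.4 ± 2.74 CPM in knockout libraries (SD, n = 2 each), so it is small beside Csf1r and moved the other way.

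Csf3r, the G-CSF receptor, fell more than Csf1r. Its level was 232 and 190.5 CPM in the control libraries and 79.5 and 77.0 CPM in the knockout libraries. The knockout libraries were close to each other and both far below the controls. The mean fell from 211 ± 29.2 to 78.3 ± 1.80 CPM (SD, n = 2 each), 37.1% of the control level. The log2 fold change was -1.41 (SE 0.11, adjusted p = 1.3e-06, edgeR). Of all stretches of 50 bases in the Csf3r transcript, 11.5% also occurred in other genes, 402 in all. With stretches of 100 bases the share was 0.414%. The count of Csf3r is uncertain to that extent. Csf3r is carried most by neutrophils and monocytes. Of 13 neutrophil marker genes tested, 2 were higher, 6 lower and 5 did not pass, and their summed level was 8450 to 9898 CPM in control and 11659 to 13504 CPM in knockout libraries. Lcn2, which encodes an iron-sequestering protein also made by activated macrophages, rose from 2064 to 5663 CPM and led the sum in the knockout libraries. S100a9 led it in the control libraries at 2232 CPM. Without Lcn2 the summed levels of the groups overlapped. The granule and calcium-binding protein genes Ngp and S100a9 did not pass (log2 fold changes -0.19 and -0.11). Without knockout replicate 2, S100a9 had a log2 fold change of -0.35. Ly6g (-1.28), Retnlg (-1.10), Cxcr2 (-0.71), Mpo (-0.68), Elane (-0.46) and Prtn3 (-0.42) passed as lower, and Mmp8 (0.89) passed as higher with Lcn2. Apart from Lcn2, the markers in that sentence were named after their values were seen. Of 8 monocyte marker genes, 1 was higher and 6 were lower, and their sum was 3404 to 3674 CPM in control and 2247 to 2800 CPM in knockout libraries. F13a1, a coagulation factor gene of monocytes, fell from 857 to 147 CPM and Ly6c2 from 727 to 590 CPM. Chil3 rose from 1032 to 1573 CPM, so the monocyte markers differed in direction. The part of neutrophil and monocyte content in the fall of Csf3r was not tested. In bulk RNA, fewer cells of a type and less RNA per cell cannot be told apart.

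The GM-CSF receptor chains divided by type. Csf2rb, the signalling chain shared by the GM-CSF, interleukin 3 and interleukin 5 receptors, was at 248 and 219 CPM in the control libraries and at 682 and 660 CPM in the knockout libraries. The groups were well apart. The mean rose 2.87-fold, from 233 ± 20.95 to 671 ± 15.9 CPM (SD, n = 2 each; log2 fold change 1.54, SE 0.10, adjusted p = 2.7e-07, edgeR).

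Csf2rb2, the beta chain of the mouse interleukin 3 receptor, was at 90.2 and 77.2 CPM in the control libraries and at 344 and 337 CPM in the knockout libraries. Again both knockout libraries were far above the controls. The mean rose 4.07-fold, from 83.7 ± 9.23 to 340.3 ± 4.83 CPM (SD, n = 2 each; log2 fold change 2.04, SE 0.10, adjusted p = 5e-08, edgeR).

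The beta chain genes lie on opposite strands of chromosome 15 and are close copies, so their counts may be partly exchanged. Their coding sequences were identical at 2505 of 2631 aligned bases (95.2%), with an identical run of 242 bases. The first 90 coding bases, which span a splice junction, are shown because they let a reader see how alike the copies are (GENCODE M21; Csf2rb on the plus strand, Csf2rb2 on the minus strand). Capitals mark the 3 positions that differ.
Csf2rb: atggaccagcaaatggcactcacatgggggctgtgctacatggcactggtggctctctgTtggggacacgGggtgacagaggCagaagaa
Csf2rb2: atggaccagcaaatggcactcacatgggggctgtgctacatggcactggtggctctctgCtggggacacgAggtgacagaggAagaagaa
Over the whole transcripts, 6.96% of all stretches of 100 bases in Csf2rb occurred in another gene, and 7.20% of those in Csf2rb2, in each case in the other copy. With stretches of 50 bases the shares were 18.4% and 19.5%, and these stretches occurred in 13 and 26 other genes. The sources used here do not say how shared reads were counted. If each was counted once, the sum of both genes does not depend on how reads were split between them. It was 338 and 296 CPM in the control libraries and 1026 and 997 CPM in the knockout libraries, a 3.19-fold difference. The separate values for each copy are uncertain to the extent of the shared stretches.

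Csf2ra, the GM-CSF binding chain, was at 137 and 105 CPM in the control libraries and at 110 and 102 CPM in the knockout libraries. The ranges overlapped, and the difference did not pass (log2 fold change -0.17, SE 0.12, adjusted p = 0.271, edgeR). Of the 6 promoters available, that of Csf2ra was the only one with the letters of the cyclic AMP response element, a sequence bound by CREB factors. It is shown because the targeted enzyme makes cyclic AMP (RefSeq, GRCm38.p6, chr19:61228430-61228668, minus strand, base -250 to base -12). Capitals mark the element.
Csf2ra promoter: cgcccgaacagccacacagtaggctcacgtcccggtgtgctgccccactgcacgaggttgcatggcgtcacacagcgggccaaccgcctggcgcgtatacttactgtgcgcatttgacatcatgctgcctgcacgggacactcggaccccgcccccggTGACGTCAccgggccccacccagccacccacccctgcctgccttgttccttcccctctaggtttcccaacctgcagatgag
The letters TGACGTCA occurred in 1.49% of the 27025 promoters. The match is a description of the sequence and says nothing of binding in these cells.

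Il3ra, the interleukin 3 binding chain, was at 74.8 and 65.6 CPM in the control libraries and at 66.6 and 57.1 CPM in the knockout libraries. The ranges overlapped, and the difference did not pass (log2 fold change -0.16, SE 0.11, adjusted p = 0.26, edgeR). Without knockout replicate 1 it passed as lower, with a log2 fold change of -0.30 and an adjusted p of 0.031. Il5ra, the interleukin 5 binding chain and a gene of eosinophils, had no count in the control libraries and was at 0.111 and 0.243 CPM in the knockout libraries.

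**Figure D2:**
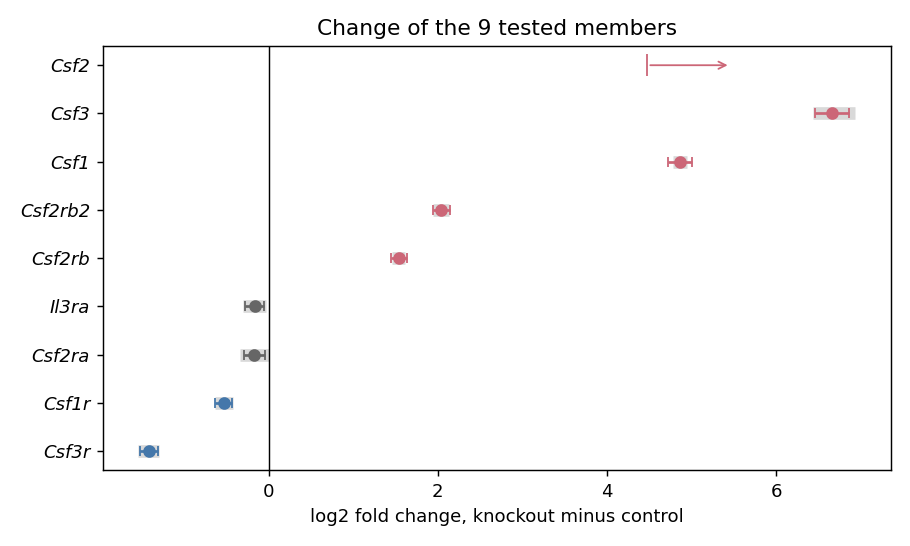
Log2 fold change, knockout minus control, of the 9 tested members, with bars of 1 SE. Grey bands span the values under 11 alternative settings, red points passed as higher, blue points passed as lower and grey points did not pass. The arrow of Csf2 starts at 22.2-fold, its pooled knockout level over the control limit. The ligands and beta chains lie to the right of 0, Csf1r and Csf3r to the left, and the alpha chains near 0.

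Because alpha and beta chains moved differently, their proportions within a library changed. The ratios here use CPM per kilobase of the gene's longest coding transcript. The beta chains together were 0.943 and 1.07 times Csf2ra in the control libraries, and 3.56 and 3.71 times Csf2ra in the knockout libraries. Against Il3ra, the beta chains together were at 2.16 and 2.15 in the control libraries and at 7.36 and 8.34 in the knockout libraries. Control cells thus held about equal amounts of beta and Csf2ra transcript per length, and knockout cells held several times more beta than alpha transcript.

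Between the copies, Csf2rb2 was at 0.376 and 0.365 of Csf2rb in the control libraries and at 0.521 and 0.528 in the knockout libraries. Csf2rb2 therefore gained on Csf2rb by 1.42-fold, subject to the shared stretches described above. The groups did not overlap in any of these ratios, and each gave an exact two-sided permutation p of 0.333, the smallest that 2 against 2 libraries can give.

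For Csf1 with Csf1r and for Csf3 with Csf3r, the ligand rose and its receptor fell, unlike Csf2, which rose together with Csf2rb. Csf1r was at 516 and 581 times Csf1 per kilobase in the control libraries and at 13.2 and 12.8 times Csf1 in the knockout libraries. Csf3r was at 115 and 68.4 times Csf3 in the control libraries and at 0.296 and 0.358 of Csf3 in the knockout libraries. The Csf3 transcript was thus below its receptor in control cells and above it in knockout cells.

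**Figure D3:**
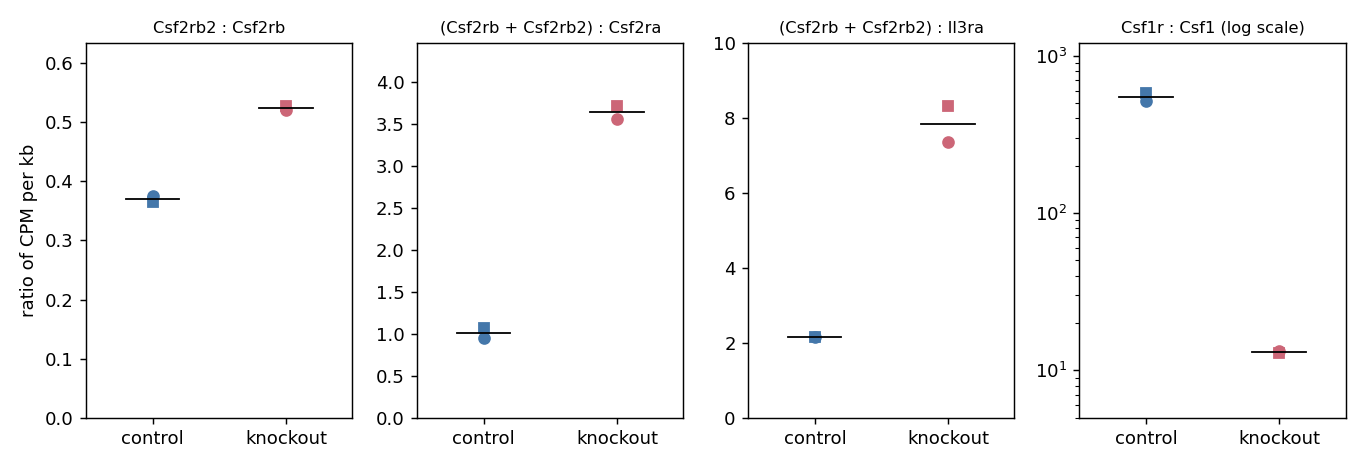
Ratios of CPM per kilobase within each library, with 1 point per library (circle replicate 1, square replicate 2) and the group mean as a line. The ratios of beta to alpha chains rise from 1.01 to 3.64 for Csf2ra and from 2.15 to 7.85 for Il3ra, Csf2rb2 gains on Csf2rb, and Csf1r falls relative to Csf1 (log axis).

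The order of levels per kilobase changed below the top. In control libraries Csf1r stood first at a mean of 384.8 CPM per kilobase, followed by Csf2ra at 65.4 and Csf3r at 60.7, whose ranges overlapped. Csf2rb followed at 47.6, Il3ra at 30.3 and Csf2rb2 at 17.7, and Csf1 and Csf3, which overlapped, were at 0.704 and 0.691. In knockout libraries Csf1r stood first at 263 CPM per kilobase and Csf2rb next at 137. Csf2rb2 at 71.8 and Csf3 at 69.5 overlapped, followed by Csf2ra at 57.4, Il3ra at 26.7, Csf3r at 22.5, Csf1 at 20.2 and Csf2 at 2.43. Csf3r moved from a place among the most abundant receptor chains to the lowest of the 6, and Csf3 from a trace to the level of a receptor chain.

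Genes with a pattern most like the members were found by the smallest Euclidean distance of log2(CPM + 1) over the 4 libraries. For Csf1 these were Ccl22, a chemokine gene (distance 0.68), the collagen gene Col5a1 (0.73) and the basophil protease gene Prss34 (1.08). For Csf3 they were Vnn3 (0.52), which encodes a pantetheinase, Igfbp7 (0.95) and the cytokine gene Il6 (0.98). For Csf1r they were Grn (0.16), which encodes progranulin, the actin gene Actg1 (0.38) and Gm29216 (0.40). Of these neighbours of Csf1r, Grn had a log2 fold change of -0.47 (adjusted p = 0.0038, edgeR) and Gm29216 of -0.37 (adjusted p = 0.0086), and Actg1 did not pass (-0.18, adjusted p = 0.141).

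The remaining genes of the pathway were read from lists by role. Counts in these lists and in the marker lists stand beside the shares over all tested genes, 25.0% passing as higher and 24.6% as lower. Of 32 genes for signalling downstream of CSF1R, 5 passed as higher, 18 as lower and 9 did not pass, with a median log2 fold change of -0.38. Those passing as higher were 3 without control replicate 1, 2 without control replicate 2 and 2 without the low-count filter. Src, the founding Src family kinase, rose from 0.943 and 1.25 CPM to 46.0 and 48.0 CPM (log2 fold change 5.43). The groups were far apart. Among those that fell were the adaptor Dok2 (log2 fold change -2.16), the Src family kinase Fgr (-1.63) and Pik3cd, the leukocyte catalytic subunit of PI 3-kinase (-1.58). The exchange factor Vav1 did not pass (0.18).

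GM-CSF and G-CSF receptors lack a kinase of their own and signal through Janus kinases and STAT factors. Of 19 such genes, 10 passed as higher, 2 as lower and 7 did not pass, with a median log2 fold change of 0.55. Jak2, the kinase bound to the beta chain, was at 49.1 and 48.3 CPM in the control libraries and at 325 and 358 CPM in the knockout libraries (log2 fold change 2.82). Both knockout libraries were about equally raised. Also higher were the survival kinase Pim3 (1.67), the feedback inhibitor Socs3 (1.29) and the adaptor Sh2b2, which had a log2 fold change of 1.151. The kinase gene Pim1 and the survival gene Mcl1 did not pass (0.09 and -0.11). The 2 that passed as lower, named after their values were seen, were the inhibitory adaptor Sh2b3 and the survival gene Bcl2l1 (-1.08 and -0.41). Without control replicate 1, or without the low-count filter, 1 passed as lower.

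Of 13 tested genes known to respond to GM-CSF in macrophages, 9 passed as higher, 2 as lower and 2 did not pass, with a median log2 fold change of 0.69. Mmp12, the macrophage elastase, was at 20.7 and 26.3 CPM in the control libraries and at 639 and 845 CPM in the knockout libraries (log2 fold change 4.99). Ccl22, a chemokine that attracts T cells, rose with a log2 fold change of 4.50, and the transcription factor Bhlhe40 with 1.77. The fatty acid carrier Fabp4 fell by 1.85 on the log2 scale. The other gene that passed as lower was Pparg, the lipid-sensing receptor that GM-CSF induces in alveolar macrophages, at -2.05, named after its value was seen. Irf4 did not pass (-0.05). Members of the list thus differed in direction. Cish and Socs2, which passed as higher, and Pim1, which did not pass, are also in the list of Janus kinases and STAT factors. Only 1 passed as lower without knockout replicate 1, without the low-count filter, by DESeq2 or by edgeR's older quasi-likelihood method.

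Genes induced by ERK, a kinase downstream of these receptors, were mixed. Of 17, 6 passed as higher, 8 as lower and 3 did not pass, with a median log2 fold change of -0.39. Ccnd1, which encodes cyclin D1 and is induced by CSF1 in dividing macrophages, fell from 467 and 435 CPM to 8.73 and 8.87 CPM (log2 fold change -5.66). Etv5 (-2.47) and Egr1 (-1.81), transcription factor genes, were also lower. The ERK phosphatase gene Dusp4 was higher (3.78), and the inhibitors Spred2 and Spry4 did not pass (0.20 and 0.00).

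Of 19 related cytokine and receptor genes of blood formation, 12 were tested, and 7 passed as higher, 1 as lower and 4 did not pass, with a median log2 fold change of 1.37. Il7r, the interleukin 7 receptor chain, was at 8.41 and 7.37 CPM in the control libraries and at 109 and 125 CPM in the knockout libraries (log2 fold change 3.90). Kit and Pdgfrb, which encode receptor tyrosine kinases of the same class as CSF1R, were at 0.779 ± 0.211 and 1.45 ± 0.647 CPM in control and at 5.67 ± 0.544 and 8.23 ± 0.789 CPM in knockout libraries (SD, n = 2 each). Their log2 fold changes were 2.88 and 2.51. Sdc1, which encodes syndecan 1, a reported interleukin 34 binding partner, rose from 57.3 to 142 CPM (1.33). The gene that passed as lower was the cytokine gene Flt3l (-0.53), named after its value was seen, and it did not pass without control replicate 2. Tslp and Il7 did not pass (-0.40 and 1.37).

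Of 13 transcription factor genes known to act on the Csf1r gene, 5 passed as higher and 8 as lower, with a median log2 fold change of -0.80. Those passing as higher were 3 without control replicate 2 or without the low-count filter. Maf was at 201 and 182 CPM in the control libraries and at 23.0 and 22.2 CPM in the knockout libraries (log2 fold change -3.06). Fos (-3.38) and Irf8 (-1.66) were also lower. These falls were larger than that of Csf1r, at -0.53.

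Of 17 transcription factor genes known to act on Csf2 and Csf3, 11 passed as higher, 5 as lower and 1 did not pass, and their median log2 fold change was 0.39. Without control replicate 1 there were 7 that passed as higher, without control replicate 2 there were 5, and without the low-count filter 7. The NF-kB subunit Nfkb2 (1.52) and the NF-kB cofactor Nfkbiz (1.43) were higher. Fos and Cebpd (-1.98) were lower, and Junb did not pass (-0.14). Fos, Jun, Cebpb, Ets1 and Runx1 are also in the list for the Csf1r gene, so the counts of these lists are not separate. Of these shared genes, Cebpb, Ets1 and Runx1 passed as higher and Fos and Jun as lower.

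Among 11 genes for factors that act on AU-rich cytokine mRNAs, 3 passed as higher, 5 as lower and 3 did not pass, and their median log2 fold change was 0.15. The 3 listed genes of the tristetraprolin family, whose proteins bind pentamers like those shown above and promote decay, were lower. Zfp36, which encodes tristetraprolin, was at 465 and 394 CPM in the control libraries and at 88.9 and 103 CPM in the knockout libraries (log2 fold change -2.15). Zfp36l1 and Zfp36l2 had log2 fold changes of -1.71 and -1.28. Zc3h12a, which encodes the RNase regnase-1, was higher (1.45), and Elavl1, which encodes the stabilising factor HuR, and Rc3h2 did not pass (0.16 and 0.15).

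**Figure D4:**
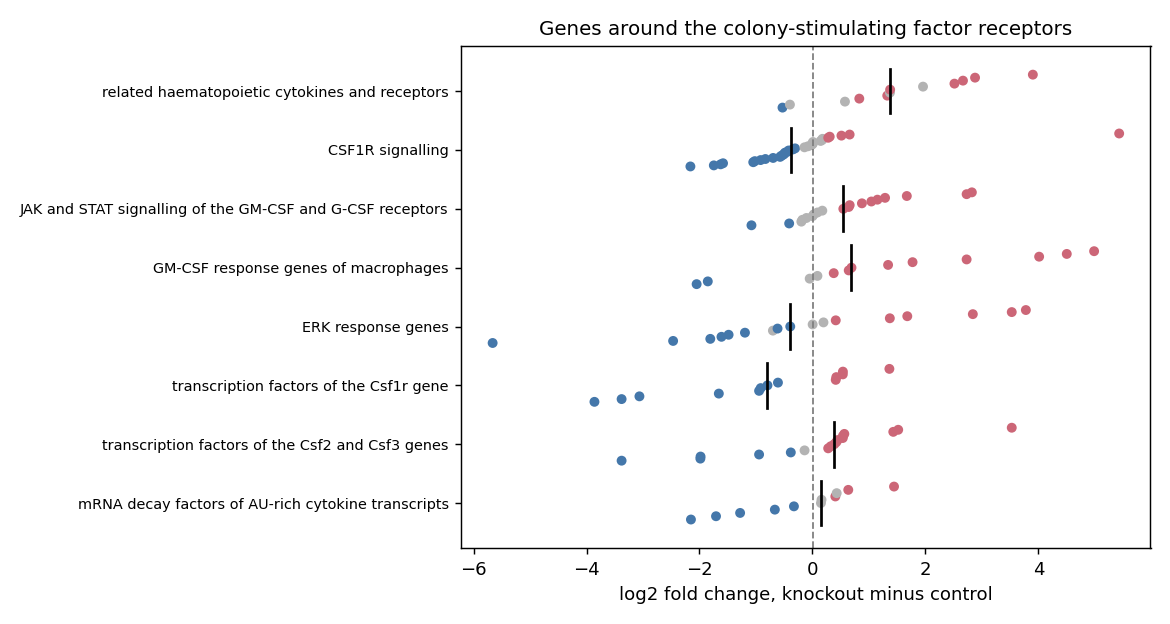
Log2 fold change, knockout minus control, of each tested gene in 8 lists around the receptors (red passed as higher, blue as lower, grey did not pass). Black bars mark the list medians, from -0.80 for the transcription factors of Csf1r to 1.37 for the related cytokines and receptors, and the dashed line marks the median of all tested genes, 0.01.

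Marker genes of the cell types that make or use these factors also differed between the groups. Of 12 macrophage markers, 1 passed as higher and 10 as lower, with a summed level of 56541 to 58387 CPM in control and 21613 to 21673 CPM in knockout libraries. Lyz2 led the sum, at 51284 CPM in control and 16454 CPM in knockout libraries, Adgre1, which encodes F4/80, fell from 1456 to 876 CPM, and Cd14 rose from 1390 to 2616 CPM. The complement genes C1qa, C1qb and C1qc, which mature macrophages express, were named after their values were seen. They were at 71.7, 418 and 301 CPM in control libraries and at 0.0278, 0.276 and 0.314 CPM in knockout libraries. Mrc1, Aif1 and Mertk, also named after their values were seen, fell from 25.2, 89.0 and 17.5 CPM to 0.0647, 0.315 and 0.317 CPM. Cd68, named in the same way, did not pass, at 885 CPM in control and 925 CPM in knockout libraries. The knockout libraries thus held Csf1r, Adgre1 and Lyz2 at lower levels, held Cd68 at a similar level and nearly lacked some markers of the labelled cell type.

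Stromal cells are a known source of CSF1 and G-CSF. Of 10 stromal markers, 7 were tested and 4 passed as higher, with a summed level of 26.5 to 28.97 CPM in control and 303 to 328 CPM in knockout libraries. Pdpn, which activated macrophages also express, led the sum in both groups, at 25.1 CPM in control and 268 CPM in knockout libraries. Dcn was at 0.291 and 36.4 CPM, and Pdgfrb at 1.45 and 8.23 CPM. The collagen genes Col1a1 and Col1a2 were at or below 1 CPM in every library, and Lepr had no count. These genes were named after their values were seen. The collagen gene Col5a1, near Csf1 in pattern and not on this list, went the other way. It was at 4.76 and 3.13 CPM in the control libraries and at 64.9 and 65.7 CPM in the knockout libraries. The part of stromal cells in the rise of Csf1 and Csf3 was not tested.

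T and natural killer cells can make GM-CSF. Of 12 markers of these cells, 4 were tested and 2 passed as higher, and the summed level was 7.71 to 8.94 CPM in control and 111 to 127 CPM in knockout libraries. Il7r accounted for nearly all of that sum, which without it was 0.343 to 0.532 CPM in control and 1.63 to 2.24 CPM in knockout libraries. Cd3d was at 0.127 CPM in control and 0.307 CPM in knockout libraries (log2 fold change 1.33, not passing), Cd247 had no count in control libraries and was at 0.766 CPM in knockout libraries, and Ncr1 and Gzma had no count in any library.

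Cells of several other lineages carry the beta chains. Of 9 eosinophil markers, 8 were tested and 7 passed as higher, with a sum of 33.0 to 36.3 CPM in control and 249.7 to 312 CPM in knockout libraries, led by Prg2, which rose from 26.4 to 219 CPM. Epx and Alox15 were at 1.85 and 0.558 CPM in control and 19.3 and 18.0 CPM in knockout libraries. Siglecf, named after its values were seen, was the tested eosinophil marker that did not pass, at 3.62 and 3.88 CPM (log2 fold change 0.11). Of 12 mast cell and basophil markers, 9 were tested and 8 passed as higher, with a sum of 28.4 to 37.8 CPM in control and 117 to 124 CPM in knockout libraries. Prss34 and Gata2 rose (log2 fold changes 3.73 and 2.97) and Hdc did not pass (0.26). The mast cell protease genes, named after their values were seen, differed. Tpsb2 and Cpa3 rose from 0.206 and 0.301 CPM to 6.26 and 6.30 CPM (4.93 and 4.42), and Tpsab1 and Mcpt4 had no count.

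All 13 platelet and megakaryocyte markers passed as higher, with a sum of 201 to 218 CPM in control and 436 to 494 CPM in knockout libraries. Pf4, whose call was lost in 4 of the 11 alternatives, was at 162 and 198 CPM, and Itga2b and Vwf had log2 fold changes of 2.90 and 3.05. The part of these lineages in the rise of Csf2rb and Csf2rb2 was not tested.

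Of 10 dendritic cell markers, 8 were tested, 4 passed as higher and 2 as lower, and their sum was 13.4 to 14.8 CPM in control and 47.6 to 49.0 CPM in knockout libraries. Ccr7, a migration receptor also found on activated macrophages, rose from 2.43 to 41.1 CPM, and Batf3 and Dpp4 fell to 1.19 and 1.09 CPM. Without Ccr7 the sum was 10.7 to 12.6 CPM in control and 6.42 to 7.96 CPM in knockout libraries. The 4 became 2 by DESeq2, without control replicate 2 or without knockout replicate 1. Of 8 B cell markers, 6 were tested, 5 passed as higher and 1 as lower, with a sum of 27.1 to 28.1 CPM in control and 38.4 to 41.1 CPM in knockout libraries. Cd79a rose from 1.12 to 12.7 CPM, and Cd79b fell from 25.5 to 16.5 CPM. Of 7 endothelial markers, 5 were tested and 2 passed as higher, with a sum of 18.4 to 23.4 CPM in control and 27.6 to 28.6 CPM in knockout libraries. Pecam1 and Egfl7, whose calls were lost in 2 and 6 of the 11 alternatives, had log2 fold changes of 0.46 and 0.59, Erg did not pass (0.52), and Tek had no count. Their part in the members' changes was not tested.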

How the data were processed

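Poly(A) RNA of the 4 libraries was sequenced; libraries had inserts of 300 ± 50 bases, from RNA with an integrity number above 7, per the labels' protocols. The deposited values are estimated counts per gene, and the submitters' processing notes name fastp, HISAT2, StringTie, edgeR and the build GRCm39; versions and roles: not given in the sources used here. The knockout columns carry the name KO3, which differs from the sample titles, and were matched by KO and the replicate number; what KO3 stands for is not explained there. Of low counts (up to 40), 30.5% to 32.2% per library were multiples of 4, against 25% without a step, so 3 fragments were cautiously taken as 12 counts for the floor.

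Of 55401 Ensembl IDs, 55141 had a symbol; for 106 symbols held by several IDs, the symbol went to the ID with most counts. Counts were fitted with edgeR 4.0.16 in R 4.3.3, with filterByExpr, TMM scaling and the newer quasi-likelihood method. The fit had 15832 genes, 2 residual degrees of freedom and a common dispersion of 0.0238. Benjamini-Hochberg adjustment and a threshold of 0.05 were used. The script was tested on simulated data. CPM use library totals of 61782358 to 71914179 counts, without TMM factors. At this depth 1 CPM is over 60 counts, and with 2 libraries a group the spread is poorly known. Transcript lengths, 3′ untranslated regions and overlaps came from GENCODE M21 on GRCm38, a build other than that of the files, and promoters from RefSeq GRCm38.p6 (6 of the 10 members matched).

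The members and gene lists were chosen with earlier results of these data known. Some genes are in several lists. Named were all members, Adcy7, up to 4 passing genes with the smallest adjusted p (mean of at least 1 CPM) and up to 2 most abundant not passing in each pathway list, the 3 most abundant tested markers of each type, and the 3 genes nearest to Csf1, Csf3 and Csf1r; a few more, named after their values were seen, complete small counts or describe absent markers. Some genes that the rule names are not reported here. The alternatives were DESeq2 1.42.0, other scalings, no filter, a replicate block, counts divided by 4, the older quasi-likelihood method and leaving out each library. Il34 was under the filter and was not tested.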

Additional observations from a re-analysis of the deposited data

How the results depend on the processing

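The 7 members that passed kept their call and direction under all 11 alternatives; Csf1r had its highest adjusted p there, 0.0105. Leaving out each library in turn gave 6091 to 7554 passing genes in place of 7848, and a log2 fold change of Il3ra between -0.30 (without knockout replicate 1, where it passed) and -0.0287, so that 2 to 3 members passed as lower. In the same leave-outs the genes passing as higher numbered 2 to 6 for CSF1R signalling, 3 to 5 for the factors of Csf1r and 5 to 10 for the factors of Csf2 and Csf3, and those passing as lower 1 to 2 for the Janus kinase list, 1 to 2 for GM-CSF response genes and 0 to 1 for the related cytokines and receptors; the lowest values came without control replicate 2, except 1 for the Janus kinase list (without control replicate 1) and for GM-CSF response (without knockout replicate 1). Without the low-count filter 6167 genes of 23096 passed, and the same lists gave 2 (CSF1R signalling, higher), 3 (factors of Csf1r, higher), 7 (factors of Csf2 and Csf3, higher), 1 (Janus kinases, lower) and 1 (GM-CSF response, lower), with more genes tested. GM-CSF response genes passing as lower were also 1 by DESeq2 and by the older quasi-likelihood method, the latter chosen after seeing the data. DESeq2 passed 7110 genes and the older method 7400. The deviations of same-numbered libraries from their group means had a correlation of 0.03. With 2 libraries a group, that value cannot tell whether same-numbered libraries share a mouse or culture. With a replicate block 7843 genes passed, 7621 of them shared with the fit without it, and no member changed its call. The markers Egfl7, Pf4, Pecam1, Ly6c2 and Chil3 lost their call in some alternatives, and S100a9, Hdc, Vav1 and Spred2 each passed in 1 leave-out. No called result changed direction. The cause of these differences was not tested. Depth limits Il34, Il3 and Il5, which were at or near no count.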
